A study of Mus musculus with 12 samples.

Results

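Skin samples labelled as T cells, from mice with lupus-like lesions, were compared with T cells skewed to the Th1 lineage in culture. The question was how far the skin samples resembled cultured Th1 cells. The comparison took all 6 skin samples and both Th1 cultures, 8 of the 12 samples of the series. The skin samples came from Ii-TGO mice, sublethally irradiated hosts in which doxycycline switches on an ovalbumin fusion protein under control of the Ii promoter, that is, in cells that carry MHC class II. The hosts had been injected with DO11 T cells, whose transgenic receptor recognises an ovalbumin peptide and which had been skewed to Th2 before transfer with IL-4 and antibodies to IFNγ and IL-12p40. Of these samples 3 were taken at first lesions, about week 4, from mice 1, 3 and 6, and 3 at a flare after a second course of doxycycline, about week 12, from mice 1, 2 and 12. The labels do not say whether the mouse 1 of both time points was the same animal, nor which hosts lacked TLR9. The Th1 cultures were DO11 T cells stimulated with peptide-pulsed irradiated spleen cells in IFNγ, anti-IL-4 antibody and IL-2, reactivated on day 7 without renewed skewing and harvested on day 10, and were never in a mouse after skewing. All mice were on the BALB/c background, and the donors were DO11 mice or Rag-/- DO11 mice crossed to the 4get IL-4 reporter. Sources differ on how the skin cells were enriched: the labels and methods name CD3 beads, and elsewhere the study names beads against KJ1-26, the DO11 receptor clonotype. Experiment 1 held 5 skin samples and Th1 culture 1, and experiment 2 held flare mouse 12 and Th1 culture 2.

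Th1 cells are the helper T cells of responses to intracellular microbes. The transcription factor T-bet, encoded by Tbx21, drives them, the IL-12 receptor chain Il12rb2 lets them respond to IL-12, the chemokine receptor Cxcr3 leads them to inflamed tissue, and IFNγ is their main product. Gata3 encodes the factor that directs Th2 cells, which make IL-4, IL-5 and IL-13. In skin lupus, interferons and the chemokines Cxcl9 and Cxcl10 that bind Cxcr3 are well known features of the lesion.

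RNA was counted with NanoString nCounter probes for 547 immune genes, with 14 housekeeping probes and 8 negative control probes that match no transcript. Values below are scaled counts, the raw count divided by a factor from 7 housekeeping genes found above the limit in all 12 samples. A gene was taken as above the limit in a sample where its count exceeded the mean of the negative controls plus 2 SD. The skin samples gave 25925 to 131229 endogenous counts (median 42314), against 480149 and 417917 in Th1 cultures 1 and 2. Accordingly the limit stood at 35.7 to 242 scaled counts in skin and at 4.74 and 3.87 in the cultures, and 163 to 303 genes were above it in skin against 363 and 362. A scaled count below about 115, the mean skin limit, is therefore background in first-lesion mouse 1 and flare mice 1 and 2 (limits 242, 135 and 159). The limits of first-lesion mice 3 and 6 and flare mouse 12 were lower, at 35.7, 54.5 and 66.0. A value near 115 is a clear signal in culture.

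The label of the skin samples was checked first against T cell genes, and the Cd3 chains and Lck did not bear it out. Cd3e, a chain of the T cell receptor complex, gave 10.8 to 58.1 scaled counts in skin (median 25) against 1065 and 555 in Th1 cultures 1 and 2, and it was above the limit in 0 of 6 skin samples. Cd3d, another chain, gave 37.7 to 123 (median 80.7) against 2181 and 2105 and was above the limit in 1 skin sample. Over Cd3d, Cd3e and Cd247, 3 of 18 skin values were above the limit, whereas both cultures were far above it for each chain. Lck, the kinase that starts receptor signalling, gave 24.7 to 109 in skin (median 60.7) against 1671 and 1607, at least 14.2-fold lower (adjusted p = 4.39e-06). Here and below, an "at least" value sets the higher group's mean against the mean limit of the group that was not above it in any sample, and adjusted p-values are those of edgeR's quasi-likelihood test with Benjamini-Hochberg adjustment over 429 genes. That test took counts at background as they stood. An adjusted p-value printed beside an "at least" value is therefore not a test of that bound. In bulk RNA such as this, fewer cells of a type and less RNA per cell cannot be told apart.

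Some T cell genes were measurable in skin. Thy1, a surface protein of T cells that some other cells carry too, gave 156 to 256 scaled counts in skin (median 196) and was above the limit in 5 of 6 samples, against 2496 and 1401 in the cultures (log2 fold change -3.28, SE 0.37, adjusted p = 9.95e-06). Cd2, an adhesion receptor of T and natural killer cells chosen after its values were seen, gave 57.2 to 241 (median 157) and was above the limit in 5 samples, against 1148 and 804 (log2 fold change -2.77, SE 0.46, adjusted p = 0.000183). For both genes every skin sample lay below both cultures. Cd4 gave 18.5 to 123 in skin (median 78.7), above the limit in 1 sample, against 399 and 236. Its call as lower did not hold without Th1 culture 1 (adjusted p = 0.0608). Ptprc, the CD45 antigen of all leukocytes and likewise chosen after its values were seen, was above the limit in all 6 skin samples at 102 to 763 (median 369), against 1026 and 541, and the groups overlapped (log2 fold change -1.05, SE 0.60, adjusted p = 0.141).

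Of 19 T cell identity genes on the panel, 9 were above the limit in no skin sample: Cd3e, Cd5, Cd6, Cd7, Cd27, Cd28, Lck, Cd8a and Cd8b1. Of 347 panel genes above the limit in both Th1 cultures, 93 were above it in no skin sample. This base suits lists detected in the cultures, as here (18 of 19). It is unlike lists below with many genes above the limit in neither Th1 culture: 18 of 27 chemokines, 20 of 28 complement genes and 11 of 18 innate cytokines. Of 18 T cell identity genes tested, 2 were higher and 11 lower in skin, beside 50.6% and 14.2% of all 429 tested genes (median log2 fold change -2.21, or -0.99 with genes at the limit in 1 group set to their bound). The summed level of the list, background included, was 990 to 3092 in skin (median 2363) and 8683 and 12160 in the 2 Th1 cultures.

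**Figure D1:**
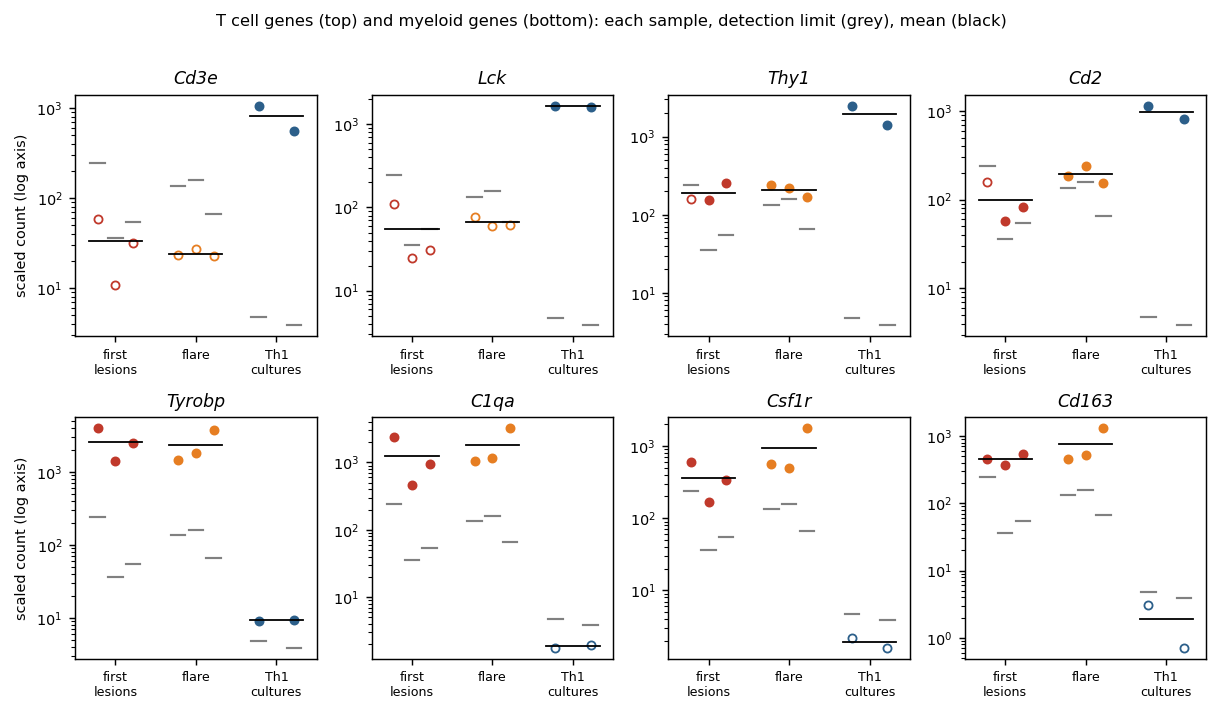
Scaled counts (log axis) of 4 T cell genes (top) and 4 myeloid genes (bottom) in the skin samples at first lesions and flare and in the Th1 cultures. Each circle is a sample, open where the gene was at or below that sample's limit, the grey dash is the sample's limit and the black line the group mean. Cd3e and Lck stand at or below the limit in all 6 skin samples, while the 4 myeloid genes stand above it in all 6, and C1qa, Csf1r and Cd163 lie below it in both cultures.

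Most genes of myeloid and tissue cells moved the other way, and the counts that follow stand against the same 50.6% of all genes called higher. Of 21 myeloid genes on the panel 16 were tested and 15 were higher in skin, with a median log2 fold change of 7.44 (5.79 with such genes at their bound). The myeloid sum was 4426 to 16269 in skin (median 9539) against 283 and 316 in the cultures, so the groups were far apart. Fcgr1, Marco, Clec4e and Clec5a were above the limit in no skin sample. The neutrophil list summed to 749 to 3232 in skin against 23.5 and 46.6, with 3 of 5 tested genes higher and Cxcr1, Cxcr2, Camp and Ctsg above the limit in no skin sample. The dendritic cell list summed to 647 to 2948 against 184 to 262, background included, with 7 of 9 higher. Only 2 of these, Cd83 and Cd209g, were higher at all 4 scalings and above the limit in 4 or more skin samples. Batf3, Xcr1 and Tlr9 were above it in no skin sample. The stromal, endothelial and epithelial list summed to 1673 to 3450 against 317 to 584, with 6 of 7 higher, 4 of them on both counts. Pdgfrb, Vcam1, Sele and Ppbp of that list were above the limit in no skin sample. Of 16 B cell genes 12 were above the limit in no skin sample, Ms4a1, Cd79a and Cd79b among them, and the B cell median, 0.81 on the log2 scale, was below the 1.46 of all genes. The list summed to 715 to 2208 in skin, the counts of the 12 genes at background included, against 251 to 536. Of the 2 mast cell genes on the panel, Kit, the defining receptor, was above the limit in no skin sample, and Fcer1a, an IgE receptor chain, gave 30.9 to 147 in skin (median 74.1), above the limit in 1 sample, against 4.66 and 27.3 (log2 fold change 2.23, SE 0.82, adjusted p = 0.0284, but not called at all 4 scalings). These levels move with every comparison below, and the part that cells other than T cells have in any difference was not tested.

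Across the panel, 217 of 429 tested genes (50.6%) were higher in skin and 61 (14.2%) lower at an adjusted p under 0.05, and the median log2 fold change of all tested genes was 1.46. The split of higher and lower calls depended on how samples were scaled. It was 131 to 206 with TMM factors, 123 to 215 with DESeq2 size factors and 191 to 109 with total endogenous counts, and the median moved to -0.68, -0.90 and 0.58. With the Cd3 chains as reference, which are mostly background in skin, the split was 415 to 5 (median 5.70), and after subtraction of the negative control mean it was 130 to 107 (limma, median 0.24). Of the 217 higher genes, 67 were above the limit in fewer than 4 skin samples, and 11 were above it in none, where the scaled count in skin cannot be told from background. Calls are therefore given mainly for genes that passed the threshold in the same direction under all 4 scalings and were measurable in the group where they were high, a rule chosen after the data were seen. By this rule 98 genes (22.8%) were higher and 54 (12.6%) lower in skin. Without Th1 culture 1 the numbers were 84 and 28.

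**Figure D2:**
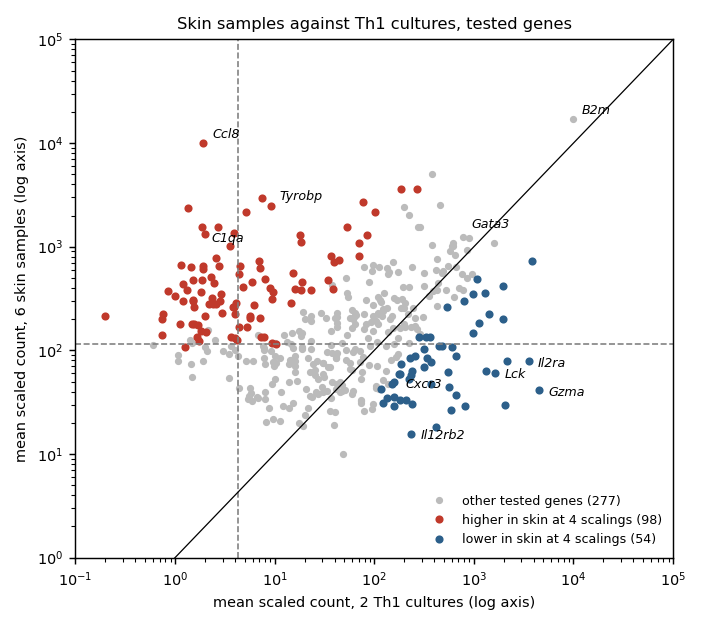
Mean scaled count over 6 skin samples against the mean over 2 Th1 cultures for the 429 tested genes (both axes log). Red and blue points mark the 98 higher and 54 lower genes at 4 scalings, dashed lines the mean limits of the groups (115 in skin, 4.30 in the cultures), and the black line equal levels. Gzma, Il2ra, Lck and Il12rb2 lie under the skin limit, and Ccl8 and C1qa to the left of the culture limit.

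The profiles themselves were unlike. Over 100 genes above the limit in all 12 samples, Spearman's rho across genes was -0.04 to 0.24 between a skin sample and a Th1 culture (12 pairs, median 0.15), 0.63 to 0.94 between skin samples and 0.93 between the Th1 cultures. Skin samples and the 3 Th2 cultures gave 0.05 to 0.27 (18 pairs, median 0.21), a range that overlaps the one against Th1. Sample by sample, all 3 Th2 values exceeded both Th1 values in 2 of 6 skin samples over these genes and in 6 of 6 over the 476 genes above the limit in any sample, where rho was 0.21 to 0.26 with Th2 and 0.17 to 0.22 with Th1. Of 347 genes above the limit in both Th1 cultures, 103 were above it in all 6 skin samples and 93 in none. For only 29 of these 93 did the Th1 mean exceed the mean skin limit, and for 13 the highest. The Th1 means of the others lay under the limits of first-lesion mouse 1 and flare mice 1 and 2. Their absence there could not be detected, while some may have exceeded the lower limits of the other skin samples. These are descriptions across genes of shared libraries, and genes are not replicates.

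The 3 markers of Th1 cells were mostly at background in skin, so their levels there are known mainly as upper limits. Il12rb2 gave 21.8, 4.63 and 13 scaled counts at first lesions in mice 1, 3 and 6 and 15.4, 20.1 and 19.3 at flare in mice 1, 2 and 12, against 320 and 152 in Th1 cultures 1 and 2. It was above the limit in 0 of 6 skin samples, and all lay below both cultures, at least 2.05-fold lower (adjusted p = 2.61e-05). The fitted log2 fold change was -4.05 (SE 0.54), and -3.38 without Th1 culture 1. Cxcr3 gave 94.4, 12.4 and 29.5 at first lesions and 69.5, 66.9 and 83.6 at flare, against 183 and 168. Its skin values also lay below both cultures, although only flare mouse 12 was above the limit (log2 fold change -1.65, SE 0.59, adjusted p = 0.0254). That call did not hold without Th1 culture 1 (adjusted p = 0.121), without Th1 culture 2 (0.092) or without first-lesion mouse 6 (0.0506).

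Tbx21 gave 65.3, 7.72 and 13 at first lesions and 38.6, 33.5 and 28.9 at flare, against 62.8 and 85.9. No skin sample was above its limit, 1 reached the level of a culture, and the difference did not pass the threshold (log2 fold change -1.43, SE 0.66, adjusted p = 0.0702). It passed without first-lesion mouse 1 (adjusted p = 0.0188), the sample with the highest limit. The limits of first-lesion mouse 1 and flare mice 1 and 2 (242, 135 and 159) exceeded both culture values. T-bet mRNA at the level of the cultures could not have been detected in those samples. The limit of flare mouse 12, 66.0, lay between the cultures. In first-lesion mice 3 and 6 the limits, 35.7 and 54.5, lay below both cultures, and Tbx21 was under them. Gata3 differed from the other 3 markers in being well above the limit in every sample. It gave 740, 1423 and 1427 at first lesions and 1266, 1331 and 1276 at flare, against 1062 and 484 in the Th1 cultures. The groups overlapped (log2 fold change 0.69, SE 0.45, adjusted p = 0.187), and the direction turned with TMM factors (-1.28), DESeq2 size factors (-1.51) and total counts (-0.032).

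The Th2 cultures, 3 samples of the cells used for transfer, put these levels in context. Those of experiment 2 are labelled male and female, and the label of the other gives no sex. They gave Gata3 at 1934 to 2412, and skin was lower than they were (log2 fold change -0.75, adjusted p = 0.0336). Their Tbx21 was 11.5 to 19.8, their Il12rb2 12.4 to 17.9 and their Cxcr3 30.2 to 67.1, all below the mean skin limit. Within each experiment, the log2 ratio of skin over the Th1 culture for Il12rb2 was -4.48 in experiment 1 and -2.91 in experiment 2. For Tbx21 these ratios were -1.32 and -1.54, for Cxcr3 -2.03 and -0.995, and for Gata3 0.181 and 1.4. Experiment 2 holds only 1 sample of each kind.

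**Figure D3:**
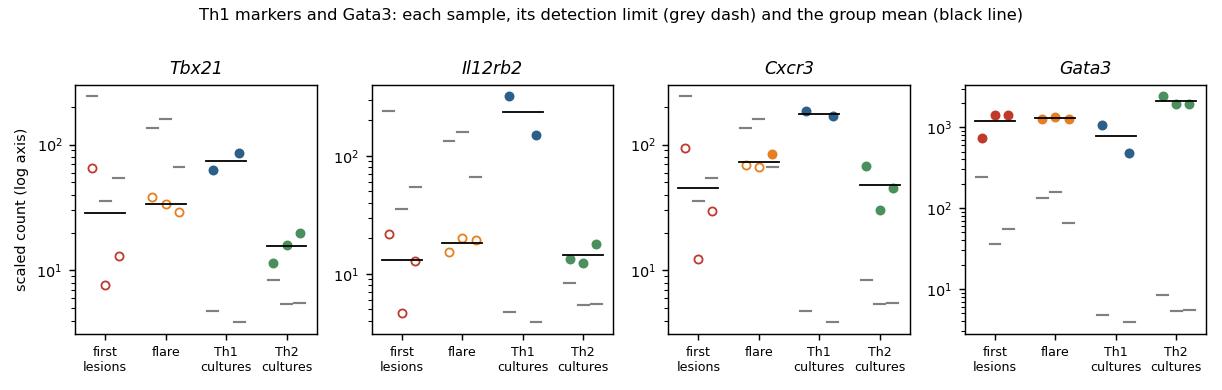
Scaled counts (log axis) of Tbx21, Il12rb2, Cxcr3 and Gata3 in skin at first lesions and flare, in 2 Th1 cultures and in 3 Th2 cultures. Circles are samples, open at or below the sample's limit (grey dash), and black lines are group means. Only Gata3 is above the limit in every skin sample, and Il12rb2 and Cxcr3 lie below both Th1 cultures in all 6.

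A ratio of a Th1 marker to Gata3 within a sample needs no scaling between samples, but it still depends on which cells a sample holds. Against the Th2 cultures, Gata3 in skin had a log2 fold change of -0.75 and Cd3e -5.69. The part of cells other than T cells in the Gata3 counts was not tested. The mean log2 ratio of Il12rb2 to Gata3 was -6.07 in skin and -1.70 in the Th1 cultures, and all 6 skin samples lay below both (exact two-sided permutation test, p = 0.0714, the smallest that 6 against 2 allows). For Cxcr3 to Gata3 it was -4.54 against -2.03, again with all 6 below both cultures (exact permutation p = 0.0714). For Tbx21 to Gata3 it was -5.41 against -3.28, with 5 of 6 below both (exact permutation p = 0.143). In skin the numerators were mostly at background. With the numerator put at its limit where it was not above it, 3, 5 and 5 of 6 skin samples lay below both Th1 cultures for Tbx21, Cxcr3 and Il12rb2, and 1, 0 and 1 above both. The mean differences from Th1 shrank from -2.12 to -0.41 for Tbx21 (exact permutation p = 0.714), from -2.50 to -1.61 for Cxcr3 (p = 0.143) and from -4.37 to -2.0 for Il12rb2 (p = 0.214). Against the Th2 cultures the means were -7.06 for Tbx21 (p = 0.119), -5.52 for Cxcr3 (p = 0.262) and -7.15 for Il12rb2 (p = 0.143), by the same exact permutation test, with 0.0238 the smallest possible p. Skin was above the Th2 cultures by 1.65, 0.99 and 1.07 on the log2 scale, and after subtraction of the negative control mean below them by these ratios, at -0.80, -1.65 and -0.72, so the direction against Th2 is not settled.

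Several other receptors and factors of the Th1 programme were at background in skin. Il12rb1, the shared chain of the IL-12 and IL-23 receptors, was above the limit in no skin sample, at 13.9 to 94.4 against 140 and 92.6. Its bound was only 1.01-fold, the groups overlapped, and its adjusted p moved from 0.0451 to 0.0691 with experiment as a block. It also exceeded 0.05 without either Th1 culture (0.26 and 0.0891), without first-lesion mouse 6 (0.0837) and without each of the 3 flare samples in turn (0.0511 to 0.0753). Stat4, which relays IL-12, gave 10.8 to 87.1 in skin against 51.0 and 49.7, with no skin sample above the limit. Runx3, a partner of T-bet, gave 10.8 to 87.1 against 132 and 75.4, likewise with none above the limit.

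Several products and receptors of the programme went the other way under housekeeping scaling. Ccl3, a chemokine that T cells and macrophages both make, gave 44.8 to 344 in skin (median 246) against 28.2 and 17.8 (log2 fold change 3.19, SE 0.73, adjusted p = 0.00192). Tnf gave 66.4 to 417 (median 143) against 25.9 and 20.5, and Ifngr2, the signalling chain of the IFNγ receptor, 190 to 305 (median 218) against 58.1 and 25.5. Hlx, a homeobox factor of Th1 cells, gave 122 to 288 (median 213) against 49.2 and 16.2. In all 4 genes every skin sample was above both cultures. The culture values, however, were below the mean skin limit of about 115, so skin counts at background can also lie above them. None was called at all 4 scalings, and with TMM factors the log2 fold changes were 0.90 for Ccl3, 0.68 for Tnf, 0.37 for Ifngr2 and 0.49 for Hlx. Without Th1 culture 1 the housekeeping values of Hlx and Ifngr2 were 3.63 and 3.15, from 2.62 and 2.44, and Hlx was 2.03 without Th1 culture 2. After the negative control mean was subtracted the call of Tnf was lost (limma, adjusted p = 0.218).

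Ifng itself gave 10.8 to 54.0 scaled counts in skin (median 32.9), all at or below the limit, with raw counts of 6 to 21. In the Th1 cultures it gave 15.7 and 3.38, above the limit in Th1 culture 1 alone, so it failed the filter and was not tested. Il28a, an interferon lambda gene, was above the limit in no sample of either group. Irf1, induced by IFNγ, was abundant in both, at 460 to 1544 in skin (median 1155) against 633 and 590, with overlap (log2 fold change 0.83, SE 0.48, adjusted p = 0.139, and -1.44 with TMM factors). Without first-lesion mouse 3 its adjusted p was 0.0366.

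Altogether 23 genes of the Th1 programme were on the panel and 21 were tested. Of these, 6 were higher and 4 lower under housekeeping scaling, beside 50.6% and 14.2% of all tested genes. At 4 scalings 0 were higher and 4 lower, Il12rb1, Il12rb2 and Cxcr3 among them. Against a background of 12.6% lower and 22.8% higher over all tested genes, the list's median was 0.44 where that of all genes was 1.46. No skin sample was above the limit for 11 of the 23, which included Tbx21, Ifng, Eomes, Fasl and Il2. The same held for 93 of the 347 panel genes above the limit in both Th1 cultures.

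The Th2 programme did not set the skin apart in 1 direction either. Il4 gave 12.4 to 58.1 in skin (median 31.2), never above the limit, and 280 and 139 in the Th1 cultures, at least 1.82-fold lower (adjusted p = 0.000513). Il4ra, the receptor chain for IL-4 and IL-13, gave 154 to 540 (median 374) against 2076 and 481. It was lower by the test although the highest skin sample exceeded Th1 culture 2 (log2 fold change -1.87, SE 0.53, adjusted p = 0.00732). Irf4, needed for helper cell differentiation, gave 27.8 to 160 (median 86.5) against 453 and 216 (log2 fold change -2.06, SE 0.55, adjusted p = 0.00527). Ccr4, a skin-homing chemokine receptor, was above the limit in no skin sample, at 13.4 to 65.3 against 187 and 57.4, and its bound was 1.06-fold. These calls leaned on Th1 culture 1, which was the higher culture for all 4 genes. Without it the adjusted p was 0.539 for Il4ra, 0.128 for Irf4 and 0.326 for Ccr4, and the log2 fold change of Il4 went from -2.79 to -2.17. Without Th1 culture 2 that of Il4ra was -2.56 and that of Ccr4 -2.62.

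Ccl24, an eosinophil-attracting chemokine, was the gene of this list that was higher at 4 scalings. It gave 72.6 to 566 in skin (median 280), above the limit in all 6, and 1.77 and 1.25 in the Th1 cultures, neither above it, at least 69.2-fold higher (adjusted p = 1.87e-05). Il1rl1, the IL-33 receptor of Th2 cells and other type 2 cells, gave 47.9 to 210 in skin (median 147) and was above the limit in 4 samples. That exceeded the 7.76 and 16.9 of the Th1 cultures (log2 fold change 3.46, SE 0.70, adjusted p = 0.000775), but not at all 4 scalings, and lay far below the 2072 to 3649 of the Th2 cultures (log2 fold change -4.43, adjusted p = 1.18e-06). Maf, a factor that drives Il4, gave 208 to 621 (median 265) against 155 and 61.5, with a log2 fold change of 1.60 (SE 0.56, adjusted p = 0.0228) that turned to -0.46 with TMM factors and -0.68 with DESeq2 size factors. The Maf call was lost without Th1 culture 2 (adjusted p = 0.21), without which the value of Il1rl1 was 4.12, and Maf was 2.41 without Th1 culture 1. Il13 gave 44.8 to 210 in skin, above the limit in 3 samples, and 76.7 and 51.5 in the cultures, and Il5 was above the limit in no skin sample. Of 22 genes on the panel 19 were tested, 4 were higher and 4 lower, beside 50.6% and 14.2% of all genes, and 9 were above the limit in no skin sample, with a median log2 fold change of 0.04.

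Some genes of activated T cells were far below culture, although the lists they belong to were mixed. Gzma, a granule protease of cytotoxic cells that these helper cultures expressed strongly, gave 9.27 to 79.8 in skin (median 36.5) against 4489 and 4554. It was above the limit in no skin sample and at least 39.2-fold lower (adjusted p = 2.78e-06). Gzmb gave 13.4 to 79.8 against 2863 and 1202, at least 17.6-fold lower. Il2ra, the inducible chain of the IL-2 receptor, gave 24.7 to 134 (median 82.3) against 5743 and 1411, at least 31.0-fold lower (adjusted p = 1.09e-05). Without Th1 culture 1 the fitted log2 fold change of Il2ra went from -5.61 to -4.27 and that of Gzmb from -6.24 to -5.48, and without Th1 culture 2 that of Il2ra was -6.29. The cultures were harvested 3 days after restimulation and the skin cells were not cultured, so origin and stimulation cannot be told apart.

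The costimulatory receptors followed. Icos gave 15.4 to 120 in skin against 2033 and 602, Ctla4 18.5 to 160 against 472 and 273, and Tnfrsf4, the OX40 receptor, 10.6 to 60.2 against 344 and 133. None was above the limit in any skin sample, and the bounds were 11.4-fold, 3.23-fold and 2.07-fold. Of 14 tested activation genes 5 were lower and 1 higher (median log2 fold change -0.33). Of 11 tested cytotoxic and natural killer genes, which include Gzma and Gzmb, 2 were lower and 3 higher (median 0.70). Over all 429 tested genes 14.2% were lower and 50.6% higher (median 1.46), so the share of lower cytotoxic genes was near that of the panel. Of the activation genes 12 of 15 on the panel were above the limit in no skin sample. Of the other IL-2 receptor chains, both chosen after their values were seen, Il2rb was above the limit in all 6 skin samples, at 158 to 922 (median 346) against 2897 and 1012 (log2 fold change -2.26, SE 0.57, adjusted p = 0.00349). Il2rg, the chain shared with the receptors for IL-4 and IL-7, gave 52.5 to 225 (median 126) against 443 and 281 (log2 fold change -1.47, SE 0.47, adjusted p = 0.0149). Without Th1 culture 1 the calls of Ctla4 (adjusted p = 0.057), Il2rb (0.144) and Il2rg (0.168) were lost, and the fitted log2 fold changes of Icos and Tnfrsf4 went from -4.49 to -3.35 and from -3.18 to -2.30. Without Th1 culture 2 that of Icos was -5.11.

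Cxcr6, a receptor of skin-homing and resident T cells, gave 46.3 to 152 in skin (median 75.2), above the limit in 2 samples, against 735 and 583 (log2 fold change -2.98, SE 0.44, adjusted p = 6.8e-05). Itgal, the LFA-1 integrin chain, gave 11.8 to 65.3 against 827 and 486, at least 5.69-fold lower. In the skin homing and residency list 6 of 13 tested genes were lower and 2 higher, beside 14.2% and 50.6% of all genes, and 9 of 15 on the panel were above the limit in no skin sample. Socs1, a feedback inhibitor of cytokine signalling, gave 46.3 to 203 (median 104) against 809 and 394 (log2 fold change -2.51, SE 0.47, adjusted p = 0.000423). Without Th1 culture 1 that value was -1.90. Of 11 tested JAK kinases and STAT factors 0 were higher and 1 lower, beside 50.6% and 14.2% of all tested genes. The list's median was -0.07 under housekeeping scaling and -2.26 with TMM factors, beside 1.46 and -0.68 for all genes. Jak1 gave 417 to 834 against 670 and 648, and Stat3 524 to 1320 against 690 and 451, both with overlap. Foxp3, the factor of regulatory T cells, was above the limit in no sample of either group.

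Ccl8, a chemokine, had the largest positive log2 fold change of the 429 genes. It gave 18334, 4440 and 7031 scaled counts at first lesions in mice 1, 3 and 6 and 7209, 8497 and 14590 at flare in mice 1, 2 and 12, against 2.22 and 1.60, neither above the limit. The bound was at least 2327-fold higher in skin (adjusted p = 2.78e-06). Ccl9 gave 1235 to 5836 (median 2481) against 7.98 and 6.95, and Ccl6 289 to 1546 (median 441) against 0.665 and 1.60. Ccl2, which attracts monocytes, gave 266 to 623 (median 511) against 1.77 and 1.25, at least 110-fold higher. Cxcl12, made by stromal cells, gave 119 to 616 (median 369) against 1.33 and 0.356. With such low culture counts the fitted values of some chemokines moved with 1 culture: the log2 fold change of Cxcl12 was 9.63 without Th1 culture 1 and 7.99 without Th1 culture 2, and that of Ccl6 was 9.72 without Th1 culture 2. In all of these every skin sample was above its limit. Of 19 tested chemokines 18 were higher and 0 lower, and 14 were higher at 4 scalings, beside 50.6% and 22.8% of all genes called by these rules, with a median log2 fold change of 6.81 (5.65 with bounds). Ccl19, Ccl20, Cxcl11 and Cxcl13 were among 9 of 27 on the panel that were above the limit in no skin sample.

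The ligands of Cxcr3 were among the chemokines found in skin. Cxcl9 gave 443, 81.9 and 199 at first lesions and 100, 100 and 80.4 at flare, against 5.54 and 3.21, and was above the limit in 4 skin samples (log2 fold change 5.22, SE 0.90, adjusted p = 0.00023). Cxcl10 gave 80.3 to 267 (median 178), above the limit in 5 samples, against 1.11 and 2.32, at least 41.0-fold higher (adjusted p = 2.01e-05). Cxcl1, a neutrophil-attracting chemokine chosen after its values were seen, gave 123 to 509 (median 254) against 2.44 and 2.32.

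**Figure D4:**
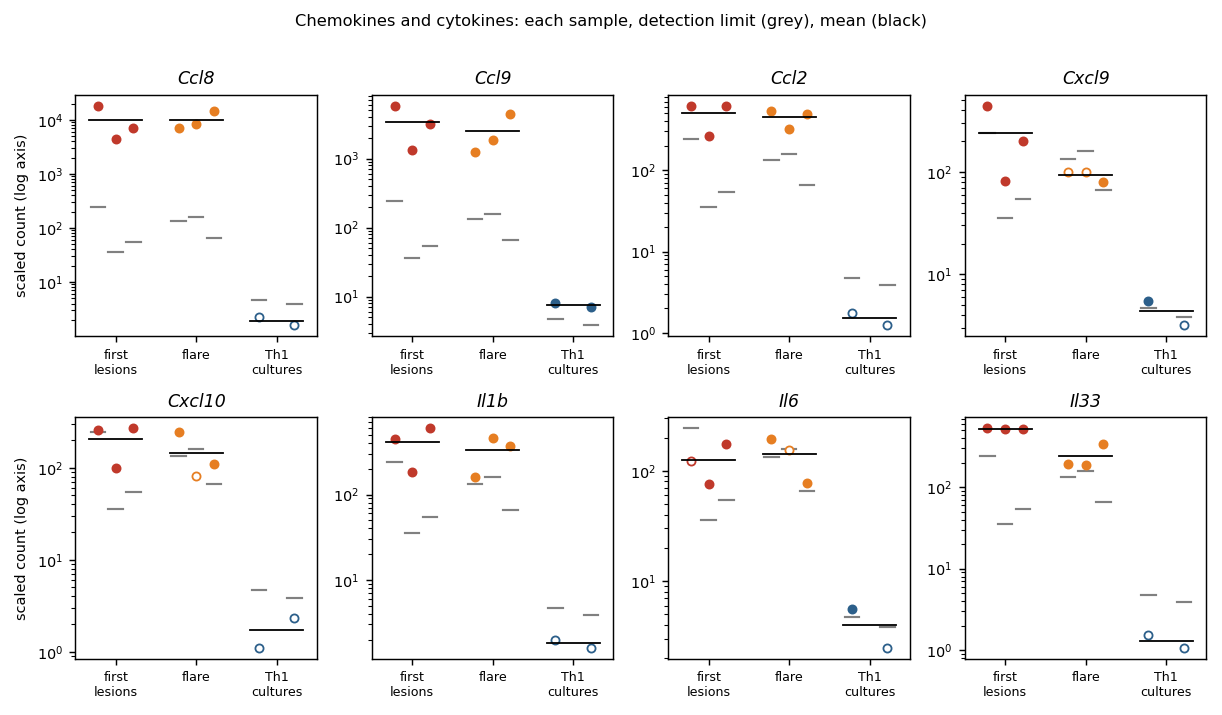
Scaled counts (log axis) of chemokines and cytokines in skin at first lesions and flare and in the Th1 cultures. Circles are samples, open at or below the sample's limit (grey dash), and black lines are group means. Every skin value is above both cultures, from 75.7 for Il6 to 18334 for Ccl8.

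Promoters of 3 of the higher genes and of 1 lower gene are shown because NF-κB sites drive inflammatory genes and the interferon-stimulated response element (ISRE) drives interferon targets. The windows run from 250 bases before to 50 after the start of the gene, from RefSeq (GRCm38.p6), 5′ to 3′ on the gene's strand, with matches in capitals. The NF-κB letters searched were GGG, any 2 bases and TTTCC, and those of the ISRE TTTC, any 2 bases and TTTC, on both strands. Cxcl1 lies at chr5:90890995-90891294 (plus strand), Il6 at chr5:30012864-30013163 (plus), Cxcl10 at chr5:92348840-92349139 (minus) and Ltb at chr17:35194257-35194556 (plus).
Cxcl1: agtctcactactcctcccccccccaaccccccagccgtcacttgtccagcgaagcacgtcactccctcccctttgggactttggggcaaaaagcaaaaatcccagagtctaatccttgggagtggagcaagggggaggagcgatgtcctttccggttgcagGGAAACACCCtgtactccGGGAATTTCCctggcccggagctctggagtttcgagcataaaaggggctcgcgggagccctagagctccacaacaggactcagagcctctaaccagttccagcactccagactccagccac
Il6: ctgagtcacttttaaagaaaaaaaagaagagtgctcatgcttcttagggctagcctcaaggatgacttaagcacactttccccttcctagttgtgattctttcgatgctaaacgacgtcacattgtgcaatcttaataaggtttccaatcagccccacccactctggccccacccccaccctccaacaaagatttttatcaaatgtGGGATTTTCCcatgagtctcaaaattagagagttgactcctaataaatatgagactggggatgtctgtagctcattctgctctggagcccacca
Ltb: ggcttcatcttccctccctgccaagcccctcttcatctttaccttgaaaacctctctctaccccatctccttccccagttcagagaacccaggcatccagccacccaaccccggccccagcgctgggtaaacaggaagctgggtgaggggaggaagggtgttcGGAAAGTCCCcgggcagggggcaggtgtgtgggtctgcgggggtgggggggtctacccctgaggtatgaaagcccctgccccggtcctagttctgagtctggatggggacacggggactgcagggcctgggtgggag
Cxcl10: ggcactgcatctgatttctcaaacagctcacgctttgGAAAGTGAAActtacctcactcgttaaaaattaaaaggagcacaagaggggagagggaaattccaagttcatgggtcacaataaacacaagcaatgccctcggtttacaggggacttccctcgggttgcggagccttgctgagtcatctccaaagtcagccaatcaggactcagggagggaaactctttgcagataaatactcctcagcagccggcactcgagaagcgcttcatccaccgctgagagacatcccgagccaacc
Cxcl1 held 2 NF-κB matches, the first of them 89 bases before the start, Il6 held 1 at 44 bases and Ltb 1 at 87 bases before it, and Cxcl10 held an ISRE match 213 bases before it. Ltb, the lymphotoxin chain of T and B cells, was a lower gene, at 9.27 to 73.6 in skin and 492 and 623 in the cultures, at least 4.84-fold. NF-κB letters were in 7 of 66 promoters of genes higher at 4 scalings (10.6%), in 3 of 37 of those lower (8.11%), in 18 of 319 of all tested genes (5.64%) and in 1.63% of all 32851 promoters in the table. ISRE letters were in 6.06% of the higher, 8.11% of the lower and 7.52% of all tested genes, and in 3.44% of all promoters. The letters AGGTGTGA, bound by T-box factors such as T-bet, were in 0 of the 66 and 0 of the 37, against 4 of 319 tested genes. The letters GAGGAAG of the myeloid and B cell factor PU.1 were in 18.2% of the higher, 21.6% of the lower and 20.4% of all tested genes, and in 13.6% of all promoters. Of the 547 probes 411 had a promoter in the table. A match of letters is a description and was not tested as a binding site.

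Among cytokines of innate and tissue cells, Il1b gave 162 to 596 (median 410) against 2.00 and 1.60, at least 85.8-fold higher (adjusted p = 6.68e-06). Il33, an alarm signal stored in epithelial and stromal nuclei, gave 187 to 530 (median 427) against 1.55 and 1.07, at least 88.6-fold higher. Il6 gave 75.7 to 193 (median 139), above the limit in 4 skin samples, against 5.54 and 2.49 (log2 fold change 5.01, SE 0.71, adjusted p = 4.36e-05). Its log2 fold change was 5.66 without Th1 culture 1, and its call was lost after subtraction of the negative control mean (limma, adjusted p = 0.108). Of 9 tested innate cytokines 5 were higher and 0 lower, a share of higher genes near the 50.6% of all tested genes, and Il12a, Il12b and Il18 were among 12 of 18 on the panel that were above the limit in no skin sample. S100a8, a calcium-binding protein of neutrophils and stressed keratinocytes, gave 324 to 1967 (median 571) against 2.88 and 2.32, at least 181-fold higher, and S100a9, its partner, 92.6 to 863 (median 566) against 2.66 and 1.96.

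Complement and macrophage genes formed the other large block. C1qa, a chain of the recognition molecule of the classical pathway that macrophages make, gave 468 to 3209 in skin (median 1118) against 1.77 and 1.96, at least 358-fold higher (adjusted p = 9.95e-06). C4a gave 477 to 5228 (median 2238) against 0.887 and 1.78, and Clu, an inhibitor of the terminal pathway, 298 to 3820 (median 970) against 3.10 and 2.32. C3, on which all complement pathways meet, gave 377 to 2370 (median 1074) against 6.43 and 1.43 (log2 fold change 8.41, SE 1.09, adjusted p = 2.23e-05). That value was 9.77 without Th1 culture 1 and 7.68 without Th1 culture 2. Of 18 tested complement genes 17 were higher and 0 lower, beside 50.6% higher over all genes (median log2 fold change 7.09, or 6.06 with bounds), and C8a, C8b, C9 and Hc were among 11 of 28 that were above the limit in no skin sample.

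Macrophage receptors were likewise higher in skin. Csf1r, the receptor for the macrophage growth factor, gave 170 to 1759 (median 529) against 2.22 and 1.60, at least 152-fold higher. Cd163, the haemoglobin scavenger receptor, gave 369 to 1299 (median 489) against 3.10 and 0.713, at least 141-fold higher. Tyrobp, an adaptor of myeloid and natural killer receptors, gave 1398 to 3978 (median 2144) against 8.87 and 9.44 (log2 fold change 8.07, SE 0.80, adjusted p = 4.39e-06). All 3 were above the limit in all 6 skin samples. The fitted log2 fold change of Cd163, 8.28, was 9.52 without Th1 culture 1 and 7.55 without Th1 culture 2, and that of Csf1r, 8.36, was 7.76 without flare mouse 12.

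MHC class II genes, which mouse T cells hardly express, were present in both groups. H2-Eb1 gave 755 to 4761 in skin (median 2758) against 39.3 and 114 (log2 fold change 5.13, SE 0.89, adjusted p = 0.000236). H2-Ab1 gave 320 to 1887 (median 1015) against 51.5 and 87.6 (log2 fold change 3.95, SE 0.71, adjusted p = 0.000322). Cd74, the invariant chain Ii whose promoter also drives the hosts' transgene, gave 1443 to 8536 (median 5310) against 209 and 556 (log2 fold change 3.73, SE 0.78, adjusted p = 0.00101), though not at all 4 scalings. Without Th1 culture 2 the values of H2-Eb1 and Cd74 were 6.09 and 4.60. Of 8 tested genes of class II presentation 6 were higher and 0 lower, beside 50.6% higher over all genes. The cultures had been stimulated with irradiated spleen cells, and the part of those cells in the culture values was not tested.

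Interferon targets gave a mixed picture. Of 12 type I interferon-stimulated genes, all tested, 7 were higher and 1 lower under housekeeping scaling, near the 50.6% of all tested genes, and the list's median was 1.78 beside 1.46 for all genes. At 4 scalings 2 were higher, 1 of them above the limit in enough skin samples to count as measured. Mx1, an antiviral GTPase that was higher at 4 scalings, gave 61.1 to 695 in skin (median 389), above the limit in 5 samples, against 20.4 and 16.0 (log2 fold change 4.36, SE 1.01, adjusted p = 0.00204). After subtraction of the negative control mean its adjusted p was 0.0569 (limma). Of 13 tested IFNγ-inducible and class I genes 3 were higher and 2 lower, a lower share of higher genes than over the panel, and B2m, the class I light chain, gave 11858 to 22628 against 12051 and 7518, with overlap (log2 fold change 0.80, SE 0.50, adjusted p = 0.172).

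**Figure D5:**
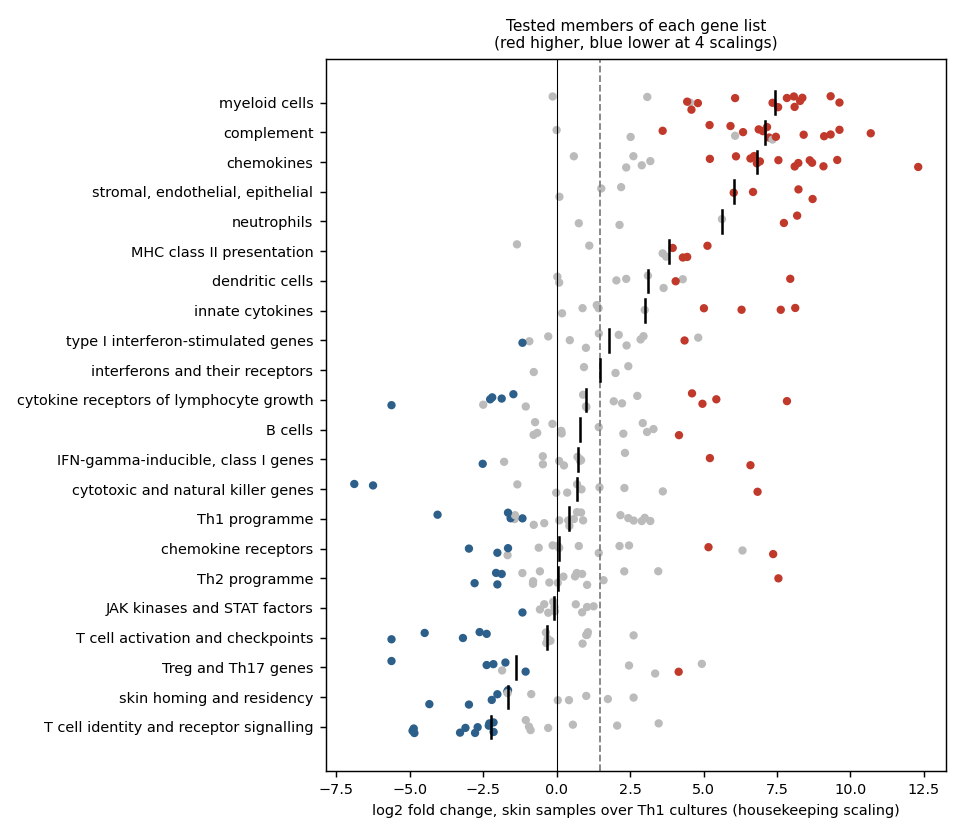
Log2 fold change of skin over Th1 cultures under housekeeping scaling for the tested members of each gene list with 4 or more tested genes (points, spread vertically for legibility). Red and blue mark genes higher and lower at 4 scalings, black bars the list medians, from -2.21 for T cell identity to 7.44 for myeloid cells, and the dashed line the median of all tested genes, 1.46.

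First lesions and flare gave similar counts against the same 2 Th1 cultures. At first lesions 199 genes (46.4%) were higher and 55 (12.8%) lower, and at flare 225 (52.4%) and 42 (9.79%). Both comparisons share the Th1 cultures. Tested directly, flare and first lesions differed in 0 of 429 genes by edgeR's quasi-likelihood test (smallest adjusted p = 0.416), and in 0 with TMM factors. At an unadjusted p under 0.05 there were 39 genes under housekeeping scaling, 37 of them higher at flare. The median log2 fold change of all tested genes, flare over first lesions, was 0.44 under that scaling and 0.01 with TMM factors. With 3 samples a side this does not show that they were alike. The chemokine list had a median log2 fold change of 6.82 at first lesions and 7.09 at flare, the myeloid list 7.17 and 7.60, the T cell identity list -2.39 and -1.92 and the Th1 programme 0.38 and 0.41.

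Against the 3 Th2 cultures the same skin samples were higher in 204 of 420 tested genes (48.6%) and lower in 93 (22.1%), and the median over these genes was 1.00 on the log2 scale. Some genes far from both kinds of culture kept their direction against each. Ccl8 had a log2 fold change of 11.04 against Th2 and 12.30 against Th1, C1qa 9.59 and 9.62, Cd3e -5.69 and -4.90, Lck -5.18 and -4.86 and Il2ra -7.08 and -5.61. The direction of the fitted value turned for Cxcr3 (0.23 against Th2, -1.65 against Th1), Tbx21 (0.78, -1.43), Gata3 (-0.75, 0.69) and Il1rl1 (-4.43, 3.46). Tbx21 was above the limit in no skin sample and Cxcr3 only in flare mouse 12, so their direction against Th2 is not settled. Cxcr3 did not differ from the Th2 cultures by edgeR's test (adjusted p = 0.733). Il12rb2 had -0.04 against Th2 and -4.05 against Th1. The 2 comparisons share the skin samples. Lineage genes gave no clear side: Il12rb2 in skin did not differ from the Th2 cultures by the test (log2 fold change -0.04, adjusted p = 0.955), and Il4 in skin lay further from Th2 (-4.45) than from Th1 (-2.79), while both genes were at background in every skin sample.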

How the data were processed

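The authors deposited raw NanoString nCounter counts of the mouse immunology panel, per the labels, for 12 samples: 547 endogenous, 14 housekeeping, 6 positive and 8 negative control probes. RNA was extracted from cultured or bead-enriched T cells and hybridised for about 18 h. Counts were used as deposited, with no background subtracted. The lowest count in the table was 1. Counts were scaled by the geometric mean of 7 housekeeping genes that exceeded the limit in every sample, where the limit was the mean plus 2 SD of each sample's negative controls. No 2 samples held identical or indistinguishable counts.

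The 6 skin samples and 2 Th1 cultures were compared with edgeR (4.0.16, in R 4.3.3), using its quasi-likelihood fit and the housekeeping factors as offset. Tested were genes that passed the limit in 2 or more of the 8 samples, with Benjamini-Hochberg adjustment and a threshold of 0.05. SE is the log2 fold change divided by the square root of F. Skin and the 3 Th2 cultures were compared in the same way, and first lesions, flare and Th1 cultures in a fit of 3 groups. Ratios used log2 of the raw count plus 1. The 1 Th0 culture entered the choice of housekeeping genes, the correlations' gene sets and an alternative fit of all 12 samples, and no comparison of its own. Alternatives were other scalings, filters and groupings, experiment as a block, each sample left out, limma (3.58.1), DESeq2 (1.42.0) and the methods' t-test. The fit was tested on simulated data.

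The samples, gene lists and marker genes were chosen with earlier results of these data known. Named genes were the 4 markers, the Th1 and Th2 programme lists, the 15 largest changes each way without overlap, up to 6 members with the largest and 3 with the smallest change of each other list, undetected cell type markers, and the cytokines Ifng, Il4, Il5, Il13, Il28a and Il28b. Some genes the rule names are not reported here. Skin samples are separate mice by their labels at each time point. The Th2 cultures of experiment 2 are labelled male and female. Nothing says that the other cultures had separate donors, so p-values measure the spread between these samples, which may be partly technical. Promoters were matched by accession, and 537 of 547 accessions were found in the RefSeq annotation. Probe and protein sequences were not used here.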

Additional observations from a re-analysis of the deposited data

Results flagged for a closer look

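In 4 of 76 genes the text describes, 1 of the 6 skin samples stood apart from the other 5, in that its gap to the nearest sample took up more of the group's range on the log2 scale than Dixon's critical value allows for 6 samples. Chance marks about 1 in 20 such groups. Il12rb2 was lowest in first-lesion mouse 3, at 4.63 scaled counts against 13 to 21.8 in the others, all of them at background. Gata3 was lowest in first-lesion mouse 1, at 740 against 1266 to 1427. Cd163 was highest in flare mouse 12, at 1299 against 369 to 531, the skin sample of experiment 2. Il1rn, the IL-1 receptor antagonist, was highest in first-lesion mouse 1, at 261 against 96.5 to 123, where the limit of that sample was 242.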

How the results depend on the processing

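The number of called genes in skin against Th1 cultures, 278, was within 1.5 times under most alternatives. It was 420 with the Cd3 chains as reference, 172 with a filter of 50 counts in all samples of either group (fewer genes tested) and 101 with the methods' t-test after Benjamini-Hochberg, under which 44 of the 76 genes described lost their call (22 at its unadjusted threshold). The Cd3 reference gave 417 calls for first lesions and 412 for flare, and rests on chains that were at background in most skin samples, so no single gene is given with it. Leaving out 1 sample gave 209 to 301 calls for all skin samples, 191 to 288 for first lesions, 213 to 303 for flare and 112 to 159 for the rule of 4 scalings (152 with all samples). The same gave -2.91 to -1.33 for the difference of the log2 Tbx21 to Gata3 ratio, -3.01 to -2.0 for Cxcr3, -4.65 to -4.02 for Il12rb2 and 4.16 to 5.31 for Ifng to Il4, a ratio of 2 genes at background in skin.

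With the experiment number as a block 204 genes were higher and 57 lower, 261 in all, and among the 76 genes described only the call of Il12rb1 was lost. Samples share an experiment number only, and 1 of 2 Th1 cultures and 1 of 6 skin samples were in experiment 2.

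After subtraction of the negative control mean, the differences of the log2 ratios to Gata3 from the Th2 cultures reversed, to -0.80 for Tbx21, -1.65 for Cxcr3 and -0.72 for Il12rb2. Log2 fold changes that reversed with the scaling were those of Gata3 (-1.28 with TMM factors, -1.51 with DESeq2 size factors, -0.032 with total counts), Irf1 (-1.44, -1.66 and -0.14) and Maf (-0.46 with TMM factors and -0.68 with DESeq2 size factors). The cause was not tested. Over the 76 genes and all settings, 1527 of 1653 values kept their direction and side of the threshold, 105 lost the call, 13 gained one and 8 reversed, and 20 genes kept theirs in every setting. Low counts in skin limit what could be detected, most of all for genes under its limit.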
